A study of Mus musculus with 6 samples.

Results

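The messages of 35 proteasome subunits were followed across 6 libraries of polyadenylated RNA from E14 cells, a mouse embryonic stem cell line. The genes were listed by name, as the subunits of the core particle, of the regulatory particle and of the alternative activators. No measured value entered the list, but it was drawn up with earlier results of these data known. All 35 were found among the 51912 genes to which the deposited transcripts could be assigned, and all 35 passed the filter on low counts. The libraries were 3 RAPIDASH eluates and 3 sucrose cushion pellets. RAPIDASH is a tag-free ribosome purification in which lysate is spun through a sucrose cushion and the ribosome-containing pellet is then passed over a cysteine-charged resin. The eluate group is what that resin bound and released, and the pellet group is RNA extracted straight from the cushion pellet. Both groups came from the same kind of culture, grown with serum and leukemia inhibitory factor on gelatin and briefly exposed to cycloheximide, a drug that stalls elongating ribosomes. No genotype or other treatment separates them, so each comparison asks how messages that had already sedimented through the cushion differed after the resin step. Selection by the resin cannot be told apart from other effects of that added handling.

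The proteasome is the protease that degrades proteins tagged with ubiquitin. Its barrel-shaped core particle stacks rings of alpha subunits, which gate the entry of substrate, on rings of beta subunits, some of which hold the proteolytic sites inside the barrel. A regulatory particle caps the barrel: its base holds a ring of ATPases that unfold and thread the substrate, and its other subunits bind ubiquitin chains, remove them and hold the assembly together. Alternative activators can cap the same barrel without ATPases. Pluripotent stem cells are known for high proteasome activity, and each subunit enters the complex in a fixed number of copies.

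The eluates held 11642883, 11256485 and 10019627 estimated read counts, and the pellets held 8438661, 10438536 and 7837621. Whether the replicates of a group were grown as separate cultures is not stated in the labels, so the p-values describe the spread among these libraries, which may be technical. On the first principal component the eluates lay between 30.4 and 41.8, against -42.9 and -45.3 for pellets 2 and 3, and pellet 1 stood apart from its group at -19.1. Counts are therefore also given without pellet 1. All 10 listed stem cell markers were detected, with a summed level of 15355 to 15416 TPM in the eluates against 11557 to 12952 TPM in the pellets (TPM, a level per transcript length with equal totals for all libraries). Dppa5a made up most of that sum, at 10288 TPM on average in the eluates and 7529 TPM in the pellets, and of the 10 markers 4 were higher and 3 lower (Sox2, Zfp42 and Tfcp2l1), with a median log2 fold change of -0.067. Of 5 fibroblast markers, 4 were below 1 TPM in all libraries and Lum was at 0, and the summed level was 9.03 to 12.3 TPM in the eluates against 5.72 to 9.07 TPM in the pellets, nearly all of it Thy1. For 7 early lineage markers the sum was 8.89 to 9.89 TPM in the eluates against 8.18 to 10.5 TPM in the pellets. The part of these marker levels in the results was not tested. All values are relative to a library's total, so a gain of one message and a loss of others cannot be told apart.

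The proteasome messages did not move through the resin step as a block. In edgeR's quasi-likelihood test at an adjusted p under 0.05, 16 of the 35 were higher in the eluates, 8 were lower and 11 were not called. Among the 13231 genes tested, the shares were 24.5% higher and 28.2% lower, so most genes of the table differed between the steps. The median log2 fold change of the 35 (eluate over pellet) was 0.080, beside 0.0035 for all genes tested, and the members ran from -1.40 for Psme4 to 0.73 for Psmb2. Their 3 eluate values lay above all 3 pellet values for 19 members, below them for 7, and overlapped for 9, where 29.1% of all genes lay above and 31.2% below. Without pellet 1, 16 members were higher and 10 lower, the additional ones being the ring subunit Psma2 and the lid subunit Psmd6. In that fit 3722 of all 13522 genes tested were higher and 4039 lower, beside 3241 and 3736 of 13231 with every library. Summed, all 35 messages together made up 0.708, 0.693 and 0.683% of TPM in the eluates, against 0.715, 0.651 and 0.656% in the pellets, and these ranges overlap. On log2(TPM + 1) in place of counts (limma), 11 members were higher and 9 lower, where 14.8% of all genes were higher and 26.9% lower.

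**Figure D1:**
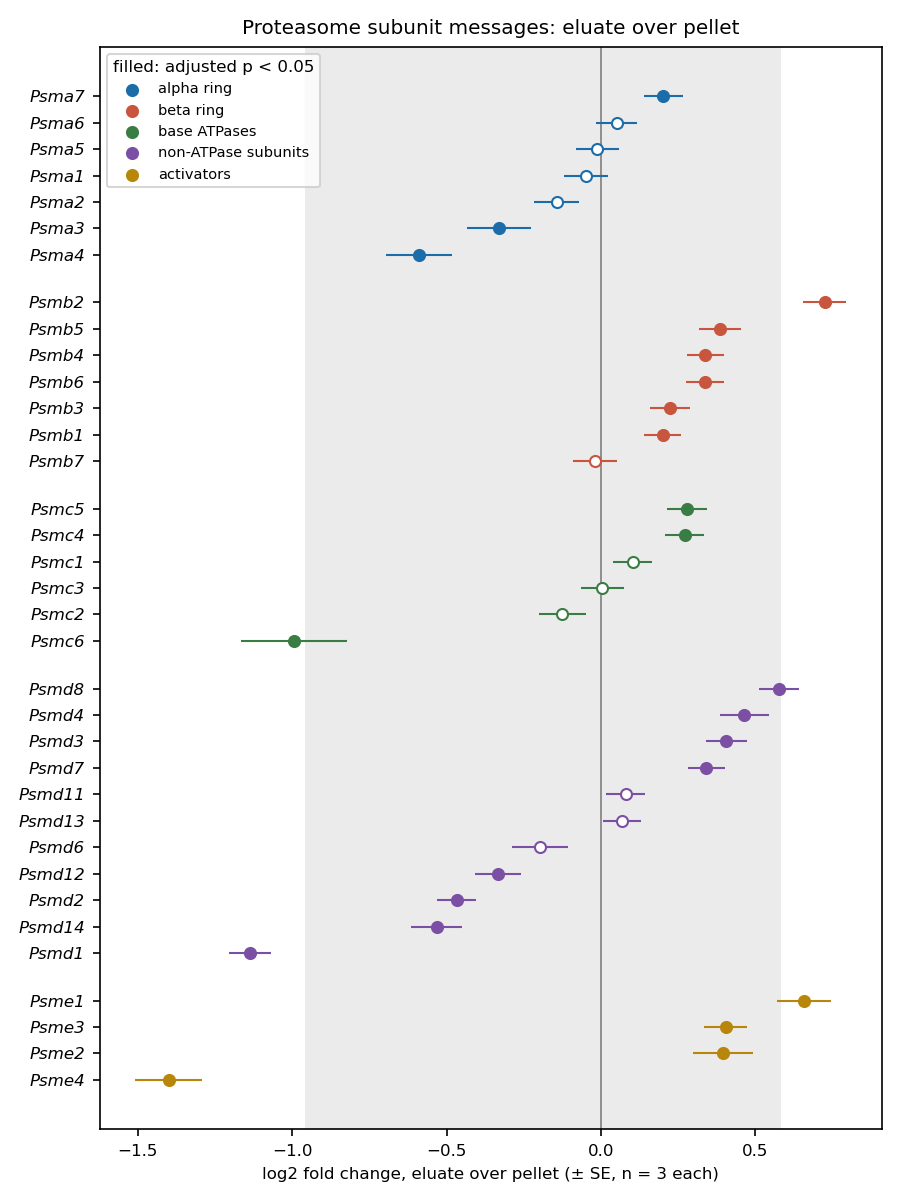
Log2 fold change of each proteasome message, eluate over pellet, with its SE (3 libraries in each group), by class and ordered within it; filled points have an adjusted p under 0.05, and the grey band spans the 10th to 90th percentile of all tested genes (-0.96 to 0.58). Psmb2 and Psme1 lie above the band, Psmc6, Psmd1 and Psme4 lie below it and 6 of the 7 beta ring points are filled and above 0, without the offset for GC and length.

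Members at the ends of this range also differed in the letters of their coding sequences. Shown here are the 90 bases at the middle of the coding sequence, in frame and on the mRNA strand, of the transcript with the highest level of each gene (GENCODE mouse release 21), with G or C at the third codon position, the wobble position, in capitals. The first 3 are the highest members of their classes: codons 87 to 116 (chromosome 4) of Psmb2, codons 131 to 160 (chromosome 7) of Psmd8 and codons 111 to 140 (chromosome 14) of Psme1.
Psmb2: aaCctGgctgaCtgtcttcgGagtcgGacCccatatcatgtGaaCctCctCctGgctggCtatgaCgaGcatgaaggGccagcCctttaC
Psmd8: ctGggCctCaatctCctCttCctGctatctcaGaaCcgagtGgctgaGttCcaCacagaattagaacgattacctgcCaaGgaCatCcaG
Psme1: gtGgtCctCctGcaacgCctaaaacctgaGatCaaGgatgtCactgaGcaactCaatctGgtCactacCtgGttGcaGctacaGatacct
The next 3 are the lowest members of their classes: codons 181 to 210 (chromosome 14) of Psmc6, codons 463 to 492 (chromosome 1) of Psmd1 and codons 908 to 937 (chromosome 11) of Psme4.
Psmc6: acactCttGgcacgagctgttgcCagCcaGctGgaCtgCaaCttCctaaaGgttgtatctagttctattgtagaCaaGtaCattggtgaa
Psmd1: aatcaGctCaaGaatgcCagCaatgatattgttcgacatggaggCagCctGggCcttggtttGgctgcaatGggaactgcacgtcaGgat
Psme4: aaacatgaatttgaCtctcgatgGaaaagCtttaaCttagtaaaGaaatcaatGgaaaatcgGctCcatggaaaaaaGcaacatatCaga
Of the 30 wobble positions in a window, G or C filled 17 in Psmb2, 18 in Psmd8 and 18 in Psme1. The counts were 14 in Psmc6, 12 in Psmd1 and 10 in Psme4. Over the whole coding sequence the shares were 57.9%, 69.7% and 67.2% for Psmb2, Psmd8 and Psme1, and 35.9%, 45.5% and 39.6% for Psmc6, Psmd1 and Psme4. The windows illustrate a property that is measured for all 35 messages further on, and they do not show it in every class. The highest ATPase, Psmc5, had 14, as did the lowest, Psmc6. In the alpha ring the highest, Psma7, and the lowest, Psma4, each had 15. Over their whole coding sequences the shares were 61.7% in Psmc5, 57.0% in Psma7 and 46.2% in Psma4.

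The alpha ring, whose subunits form the gate of the barrel, had members on both sides. Of its 7 messages 1 was higher in the eluates, 2 were lower and 4 were not called, with a median log2 fold change of -0.049. Psma7 was the highest of the ring and its most abundant message, at 389, 392 and 379 CPM in eluates 1, 2 and 3, against 318, 347 and 343 CPM in pellets 1, 2 and 3 (CPM, estimated counts scaled to library size with TMM factors). Every eluate was above every pellet, by a log2 fold change of 0.20 ± 0.063 (SE, 3 libraries in each group; edgeR adjusted p = 0.0128), and the call was lost without eluate 2 (adjusted p = 0.0613). Psma4 was the lowest, with 159.8, 173 and 154 CPM in the eluates and 199, 275 and 259 CPM in the pellets. Its groups did not overlap, pellet 1 was the pellet nearest to the eluates, and the log2 fold change was -0.59 ± 0.11 (adjusted p = 0.00071). Psma3 had 212, 227 and 202 CPM in the eluates and 221, 303 and 283 CPM in the pellets. It was lower at -0.33 ± 0.10 (adjusted p = 0.0181), but pellet 1 lay within the eluates' range, and the adjusted p was 0.064 without eluate 1, 0.0744 without eluate 3, 0.0703 without pellet 2 and 0.0648 without pellet 3. The other 4 ring members were at -0.049 for Psma1, -0.14 for Psma2, -0.012 for Psma5 and 0.050 for Psma6. Among these, Psma2 passed the threshold at -0.21 once pellet 1 was left out (adjusted p = 0.00306).

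The beta ring, which carries the proteolytic sites, had 6 of its 7 messages higher in the eluates, none lower and a median log2 fold change of 0.34, but 2 higher, 3 lower and a median of -0.10 once the trend in transcript GC and length was taken out, and 4 higher, none lower and a median of 0.17 with the trend in GC alone taken out. Psmb2, a ring subunit without a proteolytic site, had the highest fold change of all 35, with 170.0, 163 and 170.4 CPM in the eluates against 107, 101 and 96.1 CPM in the pellets. The lowest eluate was well above the highest pellet, and the log2 fold change was 0.73 ± 0.070 (adjusted p = 7.28e-07). Psmb6, which carries the caspase-like activity, was the most abundant proteasome message per length, and its CPM values were 392, 403 and 369 in the eluates and 316, 308 and 298 in the pellets. That separation gave a log2 fold change of 0.34 ± 0.063 (adjusted p = 0.000334). Psmb7, the subunit with the trypsin-like activity, was the exception of the ring, with 309, 295 and 275 CPM in the eluates and 277, 323 and 293 CPM in the pellets. Its groups overlapped and the log2 fold change was -0.020 ± 0.072 (adjusted p = 0.834). Psmb5, the chymotrypsin-like subunit that proteasome inhibitor drugs bind, had 161, 160.0 and 147 CPM in the eluates and 122, 118 and 117 CPM in the pellets. It was higher by 0.38 ± 0.069 (adjusted p = 0.000224), and the structural subunits Psmb1, Psmb3 and Psmb4 were at 0.20, 0.22 and 0.34. The call of Psmb3 did not hold without eluate 1 (adjusted p = 0.0526).

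The difference between the rings can be read within a library, where scaling between libraries plays no part. The summed TPM of the beta ring over that of the alpha ring was 1.45, 1.39 and 1.42 in the eluates and 1.24, 1.08 and 1.09 in the pellets. All 3 eluates were above all 3 pellets, and pellet 1 was again the pellet nearest to them. The beta ring made up 0.267, 0.257 and 0.253% of all TPM in the eluates and 0.246, 0.216 and 0.216% in the pellets. For the alpha ring the shares were 0.184, 0.185 and 0.178% in the eluates and 0.198, 0.200 and 0.198% in the pellets. Neither ring's ranges overlapped between the groups, and the rings differed in opposite directions in these TPM values, which carry no offset for GC. These sums over a chosen list are given without a test. In the alpha ring, mean TPM differed most for Psma3 (230 in the eluates, 310 in the pellets) and Psma4 (179 and 273). Psma6 and Psma7 were higher in the eluates. With the GC and length trend taken out, the median log2 fold change was 0.047 for the alpha ring and -0.10 for the beta ring. With the GC trend alone taken out, it was 0.34 and 0.17.

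Of the 6 ATPases of the base, which unfold the substrate, 2 were higher in the eluates, 1 was lower and 3 were not called, with a median log2 fold change of 0.053. Psmc5 was the highest and the most abundant of them, at 264, 264 and 253 CPM in the eluates against 227, 207 and 210.3 CPM in the pellets. Those groups were apart by a log2 fold change of 0.28 ± 0.065 (adjusted p = 0.00201), and Psmc4 was close to it at 0.27 ± 0.063 (adjusted p = 0.00192). Psmc6 went the other way, with 93.6, 102 and 90.6 CPM in the eluates and 141, 206 and 224 CPM in the pellets. Its eluates were all below its pellets, and pellet 1 lay between the eluates and the other 2 pellets. The log2 fold change was -0.99 ± 0.17 (adjusted p = 0.00316), the largest SE among the 35, and -1.17 without pellet 1 (adjusted p = 1.52e-20). Psmc1, Psmc2 and Psmc3 were not called, at 0.10, -0.13 and 0.0041. With the GC and length trend taken out, Psmc4, Psmc5 and Psmc6 were not called, at -0.069, 0.022 and 0.10.

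The 11 non-ATPase subunits of the regulatory particle were divided evenly, with 4 higher, 4 lower and 3 not called, and a median log2 fold change of 0.067. Psmd8, a subunit of the lid, was the highest and the most abundant of them, with 339, 354 and 375 CPM in the eluates against 244, 236 and 236 CPM in the pellets. The groups were far apart relative to their spread, with a log2 fold change of 0.58 ± 0.064 (adjusted p = 2.71e-06). The ubiquitin receptor Psmd4, the lid subunit Psmd3 and Psmd7, the partner of the deubiquitinase Psmd14, were also higher, at 0.46, 0.41 and 0.34. With the GC and length trend taken out, Psmd7 stayed higher at 0.26, while Psmd4 (0.036) and Psmd3 (-0.0097) were not called. For Psmd7 the values were 346, 353 and 358 CPM in the eluates and 283, 278 and 274 CPM in the pellets, again without overlap. Psmd1, the largest scaffold of the base, was the lowest, with 87.1, 90.8 and 83.7 CPM in the eluates and 192, 196 and 188 CPM in the pellets. Libraries within a group differed little here, pellet 1 included, and the log2 fold change was -1.14 ± 0.068 (adjusted p = 2.81e-08). Psmd2, the other large scaffold of the base, which docks ubiquitin-carrying shuttles, was at -0.47 ± 0.064 (adjusted p = 1.84e-05), with 219, 225 and 210.4 CPM in the eluates and 312, 289.8 and 302 CPM in the pellets. Both scaffolds were thus on the lower side. Psmd14, the metalloprotease that cuts ubiquitin off the substrate, had 81.8, 92.1 and 77.5 CPM in the eluates and 113, 130.2 and 121 CPM in the pellets. It was lower at -0.53 ± 0.083 (adjusted p = 6.43e-05), and at -0.11, not called, with the GC and length trend taken out (adjusted p = 0.215). The lid subunit Psmd12 was lower at -0.33, and the lid subunits Psmd6, Psmd11 and Psmd13 were not called, at -0.20, 0.080 and 0.067. Psmd6 was called without pellet 1, at -0.31 (adjusted p = 5.73e-05).

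The activators gave the widest range of any class, with 3 higher, 1 lower and a median of 0.40. Psme1, which forms with Psme2 an activator ring known to be induced by interferon, was measured at 98.7, 87.1 and 88.0 CPM in the eluates against 63.4, 57.4 and 52.5 CPM in the pellets. Eluates and pellets were separated by a log2 fold change of 0.66 ± 0.087 (adjusted p = 1.45e-05), and its partner Psme2 was at 0.39 ± 0.10 (adjusted p = 0.00266). With the GC and length trend taken out, Psme1 stayed higher at 0.19 (adjusted p = 0.0362) and Psme2 was not called, at 0.025 (adjusted p = 0.852). Psme3, a nuclear activator, was the most abundant activator message, with 319, 296 and 321 CPM in the eluates and 256, 224 and 227 CPM in the pellets. It was higher by 0.40 ± 0.070 (adjusted p = 0.000166). Psme4, a single large protein that caps the core in the nucleus, was the lowest of all 35, with 75.0, 85.1 and 70.8 CPM in the eluates and 169, 223 and 218 CPM in the pellets. Its mean was 76.9 ± 7.38 CPM in the eluates and 203 ± 30.0 CPM in the pellets (SD, 3 libraries each), a log2 fold change of -1.40 ± 0.11 (adjusted p = 8.45e-07).

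Levels per length showed how evenly the messages of one assembly were represented at each step. Averaged over all 6 libraries, Psmb6 was the highest at 563 TPM, followed by Psmb3 at 532, Psma7 at 504, Psmb4 at 407 and Psma6 at 399 TPM, all of them core ring subunits. The lowest were Psme4 at 24.3, Psmd1 at 49.2 and Psme2 at 63.1 TPM. Within the regulatory particle's non-ATPase subunits, the highest message was 8.72 to 10.1 times the lowest in the eluates and 2.97 to 3.04 times in the pellets. Among the base ATPases the ratio was 3.57 to 3.78 in the eluates and 1.88 to 2.28 in the pellets. Among the 14 core ring messages it was 5.84 to 6.19 in the eluates and 4.44 to 5.06 in the pellets. In each assembly these ratios were higher in all 3 eluates than in all 3 pellets. They rest on the highest and lowest message alone, and TPM carry no offset for GC: the lowest ATPase message in the eluates was Psmc6, whose fold change was 0.10 with the GC and length trend taken out, beside -0.99 without it, while Psmd1, the lowest non-ATPase message, stayed lower at -0.81. In the core the highest message in the eluates was Psmb6 and the lowest was Psma2. Their fold changes were -0.18 and 0.79 with the GC and length trend taken out, beside 0.34 and -0.14 without it. In the non-ATPase class the lowest message was Psmd1 in all 6 libraries, at 30.4, 30.5 and 29.0 TPM in the eluates and 75.3, 64.7 and 64.9 TPM in the pellets.

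**Figure D2:**
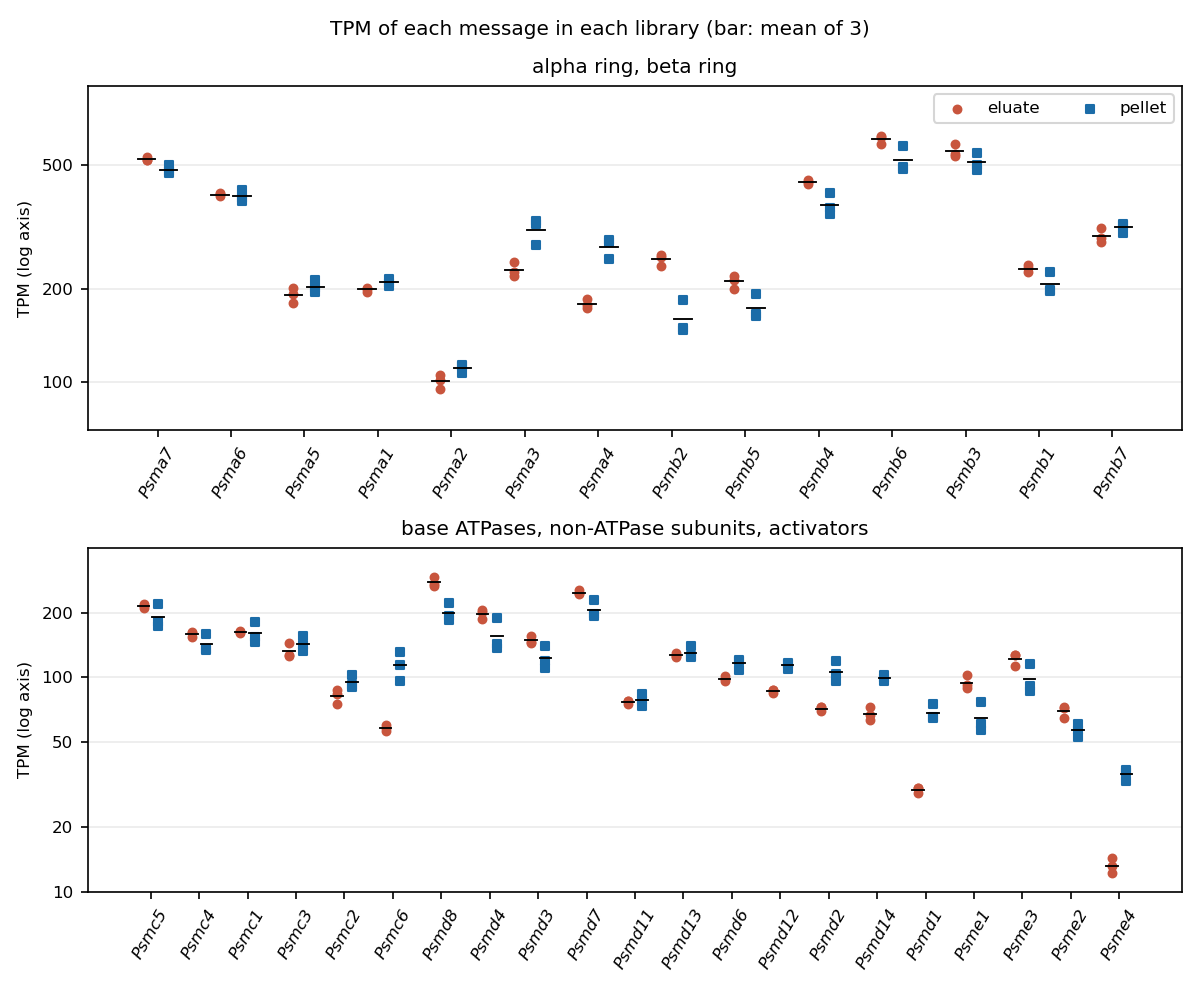
TPM of each message in each library on a log axis, eluates as circles to the left and pellets as squares to the right, with a bar at the mean of 3 libraries; the upper panel holds the core rings and the lower panel the regulatory particle and the activators. Psme4 and Psmd1 lie lowest, and their eluates lie clear of their pellets.

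Fold changes of the 35 messages were ordered with base composition. Across the members, the Spearman correlation of the log2 fold change was 0.78 with the share of G or C at the wobble position, which ran from 35.9% in Psmc6 to 72.5% in Psmd3, and 0.75 with the GC content of the whole transcript (n = 35 messages). With coding length it was -0.33 and with transcript length -0.41. Leaving out Psme4, Psmd1 and Psmd2, the members with a coding sequence of 2000 nt or more, the correlation with wobble-position GC was 0.76 (n = 32). These points share the same 6 libraries and are descriptions without a test. The relation is not particular to the proteasome: over all genes tested the correlation was 0.71 with transcript GC (n = 13231) and 0.64 with wobble-position GC (n = 12230 genes with a coding sequence).

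**Figure D3:**
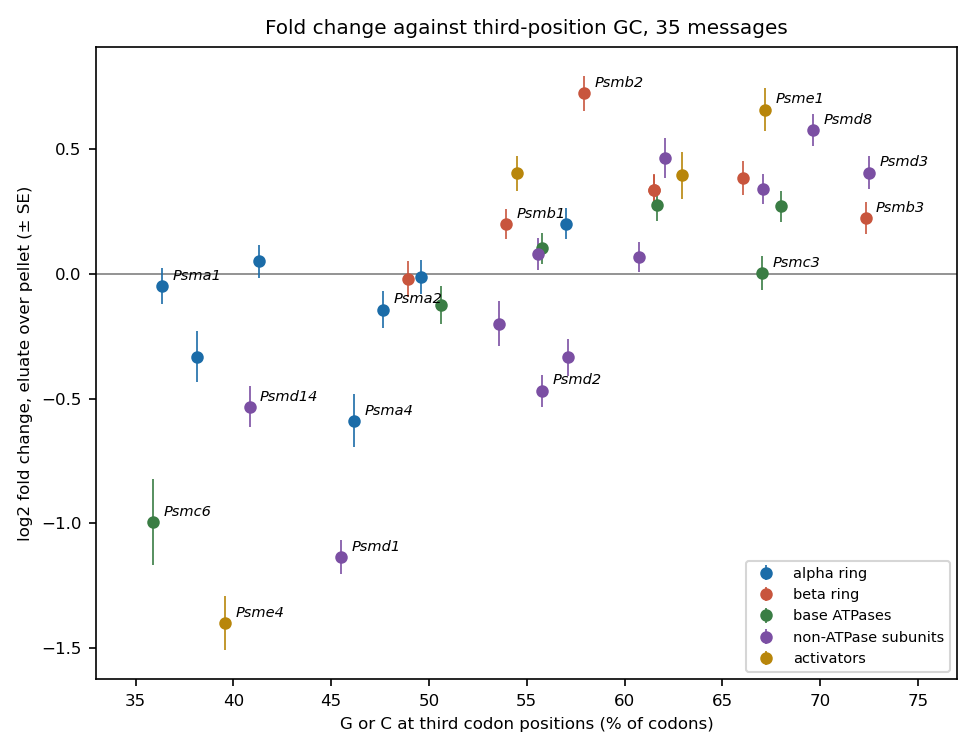
Log2 fold change of each of the 35 messages, eluate over pellet with its SE, against the percentage of codons with G or C at the third position in the leading transcript, colored by class. Members under 45% lie at or below 0 apart from Psma6 at 0.050, and members over 60% lie at or above it.

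Members of higher transcript GC had higher fold changes, as did all genes. In each of 3 GC classes the members' median lay above that of all genes, a difference that was not tested. The classes take no account of length, and the median coding length was 870 nt for the members and 1338 nt for all genes. With the GC and length trend taken out, the median was 0.021 for the members and 0.016 for all genes. Members were classed by the GC of their leading transcript, and all genes by a mean over transcripts weighted by level. Of the 9 members under 45% GC, 6 were lower and 1 was higher, with a median log2 fold change of -0.33; over all genes of that GC, 72.1% were lower and 1.77% higher, with a median of -0.75. The exception was Psmb1, at 0.20 with 44.7% GC. Of the 10 members between 45% and 50%, 2 were higher (Psmd7 and Psme3), 1 was lower (Psmd1) and 7 were not called, with a median of 0.0191, where all genes of that GC were 9.04% higher and 40.2% lower, with a median of -0.24. Of the 16 members at 50% or more, 13 were higher, 1 was lower (Psmd2) and 2 were not called (Psmc3 and Psmd13), with a median of 0.34; all such genes were 40.0% higher and 6.65% lower, with a median of 0.26. The rings of the core differed in this property, with a median transcript GC of 52.2% for the beta ring and 44.98% for the alpha ring.

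The comparison was therefore repeated with each library's smooth trend in transcript GC and length, estimated over all genes, taken out as an offset. In that fit 9 members were higher, 9 were lower and 17 were not called, with a median of 0.021, while 19.3% of all genes were higher and 15.6% lower. Of the 16 members higher in the counts as deposited, 6 stayed higher (Psmb1, Psmb2, Psmd7, Psmd8, Psme1 and Psme3). The call was lost by 7 (Psma7, Psmb4, Psmc4, Psmc5, Psmd3, Psmd4 and Psme2), and 3 turned to lower. Those 3 were all beta ring messages, Psmb3 at -0.20 (adjusted p = 0.00377), Psmb5 at -0.18 (adjusted p = 0.0187) and Psmb6 at -0.18 (adjusted p = 0.00538), and the ring's median became -0.10. Of the 8 lower members, 4 stayed lower: Psma4 at -0.37, Psmd1 at -0.81, Psmd2 at -0.47 and Psme4 at -0.54. The other 4, Psma3, Psmc6, Psmd12 and Psmd14, were not called. Psmc6 stood at 0.10 in this fit, beside -0.99 without the offset. In the reverse direction Psma2, Psma1 and Psmd11 became higher, Psma2 at 0.79 (adjusted p = 8.2e-09), and Psmc3 and Psmd13 became lower, Psmc3 at -0.37 (adjusted p = 1.26e-05). With the trend in GC alone taken out, 20 members were higher and 4 lower, against 22.5% of all genes higher and 18.4% lower. In that fit the beta ring had 4 members higher, none lower and a median of 0.17, and the alpha ring had 5 higher, none lower and a median of 0.34. Psmc6 was called higher at 0.20 (adjusted p = 0.00974), and Psma4 was not called at -0.073 (adjusted p = 0.383).

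With the trend in both GC and length taken out, the class medians were 0.047 for the alpha ring and -0.023 for the ATPases. They were -0.0097 for the non-ATPase subunits and 0.11 for the activators. In that fit with both trends removed, 2 of the alpha ring were higher and 1 lower, and of the ATPases 0 were higher and 1 lower. Of the non-ATPase subunits 3 were higher and 3 lower, and of the activators 2 were higher and 1 lower. Across 26 alternative settings, 8 of the 24 called members held their direction and their call in all of them: Psmb2, Psmd7, Psmd8, Psme1 and Psme3 on the higher side, and Psmd1, Psmd2 and Psme4 on the lower side.

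**Figure D4:**
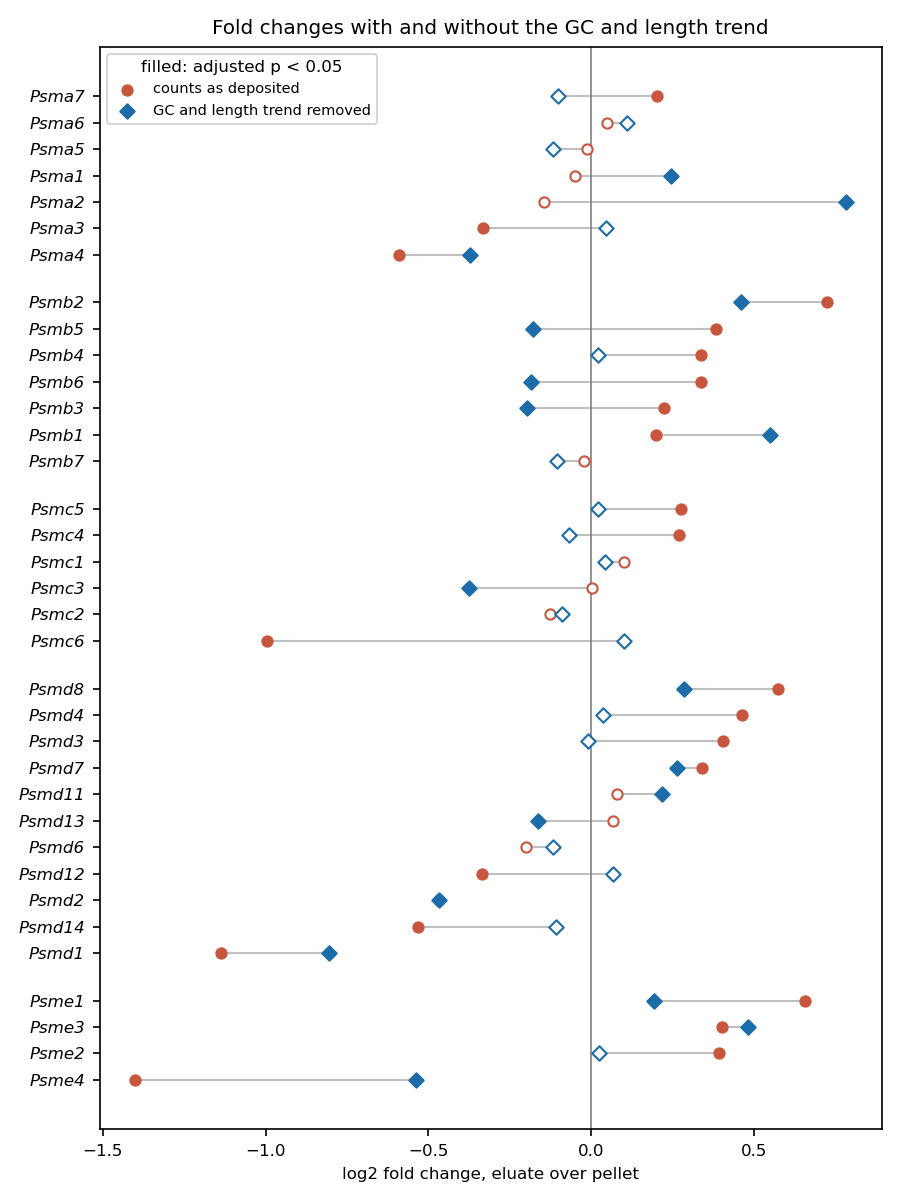
Log2 fold change of each message, eluate over pellet, from the counts as deposited (circles) and with each library's GC and length trend removed (diamonds), filled where the adjusted p was under 0.05. Psmd2 has both marks at -0.47, Psmc6 has its circle at -0.99 and its diamond at 0.10, and Psmb3, Psmb5 and Psmb6 change from filled marks above 0 to filled marks below it.

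Some members share sequence with copies elsewhere in the genome, and Salmon divides reads between such transcripts by estimate. Psmb5 shared 61.7% of its 31-base words with Gm3375, to which 11248 counts were assigned over the 6 libraries, beside 8159 for Psmb5 itself. Gm3375 was at 223, 219.8 and 218 CPM in the eluates and 168, 157 and 148 CPM in the pellets, on the same side as Psmb5. Psma3 shared 79.0% with Gm13835 (1005 counts beside 13952) and Psme2 66.2% with Psme2b (168 beside 2946). These copies were chosen after their counts were seen. With the copies' counts added, Psmb5 was at 0.44 (adjusted p = 2.77e-05), Psma3 at -0.32 (adjusted p = 0.0156) and Psme2 at 0.38 (adjusted p = 0.00236), so none of these calls changed. The copies were added only in the fit without an offset. With the GC and length trend taken out, Psmb5 alone was lower at -0.18, and Gm3375 was not called at -0.090 (edgeR adjusted p = 0.208). Levels of Psmb5 and Psma3 remain uncertain.

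Most members were counted from 1 dominant transcript. Psma3 and Psmd4 were the exceptions, each with 2 transcripts at similar counts. For Psma3 the longer transcript of 2846 nt held 51.9, 48.0 and 50.9% of the gene's counts in the eluates and 47.5, 42.8 and 42.9% in the pellets, so every eluate was above every pellet, with pellet 1 closest to the eluates. For Psmd12 a transcript of 1311 nt, which holds the coding sequence alone, received 0, 0 and 0% of the counts in the eluates and 7.57, 2.21 and 5.70% in the pellets. These divisions are estimates between overlapping transcripts and were not tested.

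Other genes of the proteasome pathway, listed by role, moved in both directions too. Of 34 such genes found, 32 passed the low-count filter, and 14 were higher, 7 lower and 11 not called, where 24.5% of all genes were higher and 28.2% lower. The immunoproteasome subunit Psmb8 and the thymus subunit Psmb11 were the pair that did not pass. Among 8 assembly chaperones 5 were higher and 1 lower, among them Psmg1 (0.36 ± 0.078) and Pomp (0.30 ± 0.078), which help to build the core particle, and Psmd9 (0.67 ± 0.093) and Psmd5 (-0.38 ± 0.073), which bind ATPases of the base before assembly. With the offset for GC and length, Psmd9 stayed higher at 0.57, Psmg1 and Pomp were not called at 0.070 and 0.094, and Psmd5 turned to higher at 0.21 (adjusted p = 0.016). All 3 enzymes that edit ubiquitin chains on the proteasome were lower, the deubiquitinases Usp14 (-0.86 ± 0.082) and Uchl5 (-0.44 ± 0.13) and the ligase Ube3c (-0.67 ± 0.077). For Uchl5 the groups overlapped, with eluate 2 at 62.0 CPM and pellet 1 at 59.7 CPM. With that offset none of the 3 was lower, and Uchl5 was higher at 0.30. Among 8 shuttles and adaptors 3 were higher, 2 lower and 3 not called. The inhibitor Psmf1 was higher at 0.68 ± 0.090, and of the immunoproteasome and tissue-specific subunits Psmb10 was higher at 0.28 ± 0.12 (adjusted p = 0.0489), a call lost without pellet 1 (adjusted p = 0.136) and at -0.23, not called, with the offset. With the same offset, 16 of the 32 tested were higher and 2 were lower (19.3% and 15.6% of all genes), and the median was 0.19, beside 0.21 without it.

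The highest called gene of this list was Adrm1, the ubiquitin receptor that anchors Uchl5, with 288, 283 and 291 CPM in the eluates against 172, 158 and 171 CPM in the pellets. Its log2 fold change was 0.79 ± 0.064 (adjusted p = 2.23e-07), and it was 0.18 (adjusted p = 0.0127) with the GC and length offset. The lowest was Ecpas, a large adaptor of the holoenzyme, with 8.37, 10.6 and 6.71 CPM in the eluates and 22.5, 29.5 and 28.7 CPM in the pellets, a log2 fold change of -1.64 ± 0.16 (adjusted p = 1.39e-06). Ecpas stayed lower with the trend removed, at -0.77. The polyubiquitin gene Ubb was higher by 0.49 ± 0.079 (adjusted p = 0.000108), a call lost with the offset, where it was at 0.13 (adjusted p = 0.133), and Rps27a, which encodes ubiquitin fused to a ribosomal protein, was at 0.027 ± 0.073 and not called. Nfe2l1, the transcription factor that raises proteasome genes when proteolysis falls short, was slightly lower at -0.19 ± 0.066 (adjusted p = 0.025), and Akirin2, which brings proteasomes into the nucleus, was higher at 0.28 ± 0.073 (adjusted p = 0.00417).

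The authors' deposited table of the same comparison lists 4892 genes with an adjusted p under 0.05. It holds 24 of the 35 members, 16 higher and 8 lower in the eluates, and they are the 24 called here, each in the same direction. In the authors' deposited table Psme4 had a log2 fold change of -1.33, Psmd1 of -1.10 and Psmc6 of -0.87. On the higher side the authors' deposited table gave 0.73 for Psmb2, 0.64 for Psme1 and 0.56 for Psmd8.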

How the data were processed

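Poly(A) RNA of 3 RAPIDASH eluates and 3 cushion pellets was analysed, grouped by sample title. Per the submitters' processing notes the authors used Salmon 1.10.3, STAR 2.7.11b, DESeq2 1.44.0 and cutadapt 4.7 on GRCm39, whose roles and order are not stated. The release of the annotation is not stated there. Per the file headers, the deposited Salmon files hold an estimated count and TPM per transcript. Also per the file headers, the authors' table holds log2 fold changes, p-values, adjusted p-values, mean normalized counts (a signal) and a Wald score.

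GENCODE mouse release 21 was matched to the transcripts by identifier (76858 of 84226, with 1.63% to 2.35% of a library's counts unmatched and left out). That release uses another build, so no coordinates are printed. Estimated counts were summed per gene, rounded, and compared by edgeR 4.0.16 under R 4.3.3 (robust quasi-likelihood fit, TMM factors, default low-count filter, Benjamini-Hochberg adjustment over 13231 genes, adjusted p under 0.05). The step was tested on simulated data, where 31 of 50 genes changed 1.5-fold and 49 of 50 changed 4-fold were called. Of the 178 calls, 14 were false. SE is the absolute log2 fold change over the square root of F. The trend fit used splines with 5 degrees of freedom. Alternatives were other scalings, filters, DESeq2 1.42.0, limma 3.58.1 (voom, and log2(TPM + 1)), a replicate block, leaving out libraries, GC and length offsets, and other transcript choices. Chi-square values per gene were 3.12 to 18.0 within groups and 32.9 to 82.0 between them, so no library repeats another.

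The members, classes, pathway and marker lists were chosen with earlier results of these data known. Named in full are, in each class, the highest and lowest fold change and the highest mean TPM, and in the pathway list the highest and lowest called and the most abundant gene. Other names complete their class or were chosen after their values were seen. That rule foresaw protein sequences, and coding sequence of GENCODE transcripts is shown in their place. Paaf1 was not analysed here. The most abundant gene of the pathway list is not reported here. Plots used Python 3.11.15 and matplotlib 3.10.9.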

Additional observations from a re-analysis of the deposited data

How the results depend on the processing

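Of 910 comparisons of a member's fold change with an alternative setting, 823 kept the call, 40 lost the call, 13 gained one and 34 reversed in direction. All these reversals came from removing GC trends, and their cause was not tested. They include Psma1, Psma2, Psmb7, Psmc3 and Psmd13, which were not called in the main fit, so not all are reversals of a called value. With the GC and length trend removed, 9 members were higher in place of 16, 2065 of all genes were lower in place of 3736, and the reversed log2 fold changes were 0.24 for Psma1, 0.79 for Psma2, 0.046 for Psma3, -0.10 for Psma7, -0.20 for Psmb3, -0.18 for Psmb5, -0.18 for Psmb6, -0.37 for Psmc3, -0.069 for Psmc4, 0.10 for Psmc6, -0.0097 for Psmd3, 0.068 for Psmd12 and -0.16 for Psmd13. With the GC trend alone removed, 4 members were lower in place of 8, 2428 of all genes were lower, and the reversed values were 0.54 for Psma1, 0.83 for Psma2, 0.34 for Psma3, 0.17 for Psmb7, -0.24 for Psmc3, 0.20 for Psmc6, 0.23 for Psmd12 and 0.13 for Psmd14. The replicate block together with that GC and length correction gave 9 members higher, 2039 genes lower and 0.24 for Psma1, 0.79 for Psma2, 0.047 for Psma3, -0.10 for Psma7, -0.20 for Psmb3, -0.18 for Psmb5, -0.18 for Psmb6, -0.38 for Psmc3, -0.068 for Psmc4, 0.10 for Psmc6, -0.0094 for Psmd3, 0.068 for Psmd12 and -0.16 for Psmd13.

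The labels do not say that the replicate numbers mark 1 pellet, so they were not taken as pairs. Same-numbered eluates and pellets correlated at 0.0698, 0.151 and -0.0102 in their deviations from the group means. Different-numbered ones ran from -0.176 to 0.111, and with 3 libraries in each group these values do not settle the pairing. The replicate block alone left 16 members higher and 8 lower. TPM in place of counts gave 11 members higher and 9 lower, and 1960 of all genes higher in place of 3241. Upper-quartile factors gave 19 members higher and 4055 of all genes higher. Under that scaling the median log2 fold change of all genes was 0.094, beside 0.0035 in the main fit. Leaving out libraries gave 12 to 16 members higher, 6 to 10 members lower, 1949 to 3722 genes higher and 2662 to 4039 genes lower, the lowest count of higher genes without both libraries numbered 3. With those left out, Psma3, Psma7, Psmb1, Psmc4 and Psmd12 lost the call, and without both numbered 2, Psma3, Psma7, Psmb1, Psmb3 and Psmc5. TPM lost Psma7, Psmb1, Psmb3, Psmc4 and Psmc5 and gained Psmd6, an adjusted p under 0.01 lost Psma3, Psma7 and Psmb1, and upper-quartile factors gained Psmc1, Psmd11 and Psmd13. DESeq2, voom, both filters, the other scalings, the effective-length offset, both transcript choices, the added copies and the block alone kept every member's call and the direction of every called member, while uncalled members near 0 (Psma5 and Psmc3) changed sign under some of them. Precision is limited by 3 libraries in each group.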
